A study of Homo sapiens with 4 samples.

Results

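The 10 genes described here are the NOTCH receptors NOTCH1, NOTCH2, NOTCH3 and NOTCH4, the ligands JAG1, JAG2 and DLL1, and the target genes HES1, HEY1 and HEYL, out of 57500 genes counted. They were chosen by symbol, with earlier results of these data known, and all 10 were found through GENCODE release 29. RNA-sequencing was performed on 1 library of parental SUM159 cells and on 1 library from each of 3 NOS2KO clones, which the labels number 1, 5 and 6. SUM159 is a triple-negative breast cancer cell line that the study treats as metaplastic breast cancer (MpBC), a rare and chemoresistant form of the disease. The study sequenced the clones, made to lack iNOS, the inducible nitric oxide synthase encoded by NOS2, to learn how blocking NOS turns back the epithelial-to-mesenchymal transition (EMT). The parental cells carry the genotype label of a control. The clones had been transfected with a double nickase CRISPR plasmid against NOS2, selected with puromycin, and picked by their iNOS protein and by their nitrite and nitrate. All cells were grown in the same medium with serum, and no drug was given besides the selection. No parental subclone or puromycin-selected control was among these libraries, so that transfection, selection and the choice of a single clone cannot be told apart from the loss of NOS2.

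Notch signaling passes between neighboring cells. A JAG or DLL ligand on one cell binds a NOTCH receptor on the next, ADAM proteases and gamma-secretase then cut the receptor, and its intracellular part enters the nucleus and joins the DNA-binding protein RBPJ and a Mastermind coactivator to switch on HES and HEY genes, which encode transcriptional repressors. In the breast the pathway is known for its part in luminal cell fate, stem cell maintenance and EMT.

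NOS2 itself had 2 counts in parental cells, 3 in clone 1, 18 for the library labelled clone 5 and 1 in clone 6. Only the library labelled clone 5 exceeded a floor of 3 counts, and it was above the parental library. The mRNA of the targeted gene was too low to check the other labels, and it did not bear out the label of that library. The clones were picked by iNOS protein, nitrite and nitrate, which these counts do not measure, so the counts cannot decide whether that label is right. Between 90467395 and 122171287 counts fell on genes per library, and 3 counts corresponded to 0.0246 to 0.0332 CPM, the counts per library scaled to a common total. The mesenchymal markers VIM, FN1, CD44 and ZEB1 were found in every library, at 39.5 CPM or more, whereas the epithelial markers CDH1 and EPCAM did not exceed 0.413 CPM. The other 2 epithelial markers, the keratins KRT8 and KRT18, were at 253.8 and 303.0 CPM in the parental library and higher in every clone, at 416.0 to 806.3 and 325.8 to 467.2 CPM. The mesenchymal markers VIM, FN1 and CD44 were higher in every clone too, with log2 fold changes of 1.02, 0.27 and 0.82. ZEB1 was lower in every clone, with a log2 fold change of -0.77. Of the 4 markers of other cell types, PTPRC, a leukocyte phosphatase, was at 4.45 CPM in the parental library and at 41.7 to 105.4 CPM in the clones. CD3E, a defining T cell marker, had at most 8 counts, with 0 in the parental library and in clone 6. PECAM1 was at 16.1 CPM in the parental library and lower in every clone, at 7.06 to 13.9 CPM. VWF was at 0.210 CPM in the parental library and higher in every clone, at 0.279 to 3.80 CPM. The 4 markers summed to 20.8 CPM in the parental library and to 52.5 to 116.3 CPM in the clones, or to 16.3 CPM and 10.8 to 14.2 CPM without PTPRC, and their part in the Notch results was not tested.

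As a view of the DNA in front of these genes, the 250 bases before each transcript start were read from RefSeq on GRCh38.p14, which held 8 of the 10 genes and neither DLL1 nor HEY1. Both strands were searched for the core of the RBPJ site, TGGGAA, and for the AP-1 site, TGANTCA, whose matches in these windows did not overlap. Of 35114 promoters of the same length, 20.8% held the first and 6.57% the second. Among the 8 genes the RBPJ core stood in HES1 and HEYL, with 2 matches each, and the AP-1 site in NOTCH4, with 1 match. HES1 is shown because it is the classical Notch target, and its matches, in capitals, began at positions -84 and -70 from the RefSeq start, both on the coding strand. NOTCH1 is shown because it had the lowest p among the 10 genes, and neither motif was found in its window. The HES1 stretch, chr3:194135898-194136144 on the plus strand, holds 247 bases and stops where the gene model of the files begins. The NOTCH1 stretch, chr9:136546049-136546298 on the minus strand, holds 250 bases.
HES1: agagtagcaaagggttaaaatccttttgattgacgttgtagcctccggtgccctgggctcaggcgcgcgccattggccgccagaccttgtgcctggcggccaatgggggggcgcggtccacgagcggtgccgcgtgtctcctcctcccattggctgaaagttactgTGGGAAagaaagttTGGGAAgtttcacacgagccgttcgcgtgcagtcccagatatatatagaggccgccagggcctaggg
NOTCH1: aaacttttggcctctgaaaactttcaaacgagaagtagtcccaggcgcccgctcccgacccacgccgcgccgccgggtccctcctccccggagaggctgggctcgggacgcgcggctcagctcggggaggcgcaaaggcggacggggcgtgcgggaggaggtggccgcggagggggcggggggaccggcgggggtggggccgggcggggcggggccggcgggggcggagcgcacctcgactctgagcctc
A match in these windows is a description of the letters and not evidence of binding.

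NOTCH1 and HEY1 fell in the NOS2KO clones, and no gene of the set rose. NOTCH3, JAG1, JAG2 and DLL1 were also below the parental level in each of the 3 clones without meeting the criterion, and NOTCH2, NOTCH4 and HES1 lay on both sides of it. The criterion was the one the study applied, an unadjusted p under 0.05 with a log2 fold change above 1 or below -1, here with the p of edgeR's quasi-likelihood test. HEYL was too low to be tested. Of the 9 tested genes 2 met the criterion, or 22.2%, against 9.58% of all 22511 genes tested, and both were lower, a direction in which 5.34% of all genes met it. The genes below the parental level in all 3 clones were 6 of 9, or 66.7%, against 30.5% of all genes tested, and those above it in all 3 clones were 0 of 9, against 28.6%. The median log2 fold change was -0.92 over the 9 genes and 0.10 over all genes tested. After Benjamini-Hochberg adjustment edgeR's test called 0 of the 9 genes at an adjusted p under 0.05, as against 1 of all genes, or 0.00444%, while 3 of the 9 had an unadjusted p under 0.05. DESeq2's Wald test called 2 of the 9 at an adjusted p under 0.05, again NOTCH1 and HEY1, and 4.86% of all genes. Only the 3 clones carry information on the spread (2 residual degrees of freedom), and with 1 library against 3 the smallest p of an exact permutation test is 0.25. The labels do not say whether the libraries came from repeated cultures, so a p-value here measures the spread between clones.

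**Figure D1:**
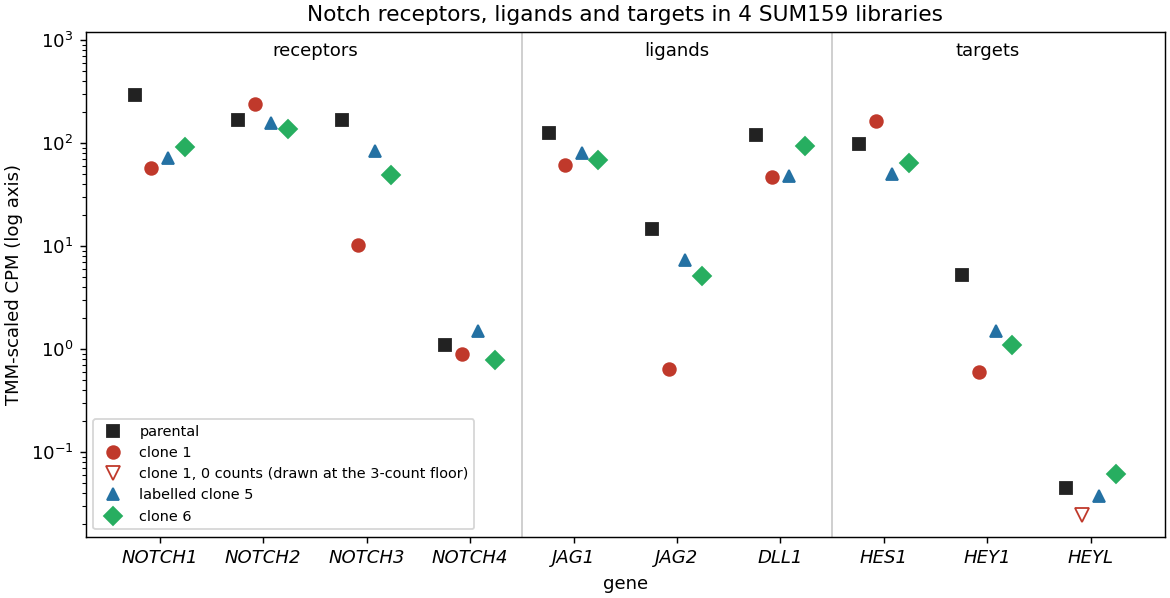
TMM-scaled CPM on a log axis for the 10 genes in the 4 libraries, with 1 point per library and no error bar. The parental square is above all 3 clones for NOTCH1, NOTCH3, JAG1, JAG2, DLL1 and HEY1, and among the clones for NOTCH2, NOTCH4 and HES1. The 0 counts of HEYL in clone 1 are drawn at the floor of 3 counts.

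NOTCH1 encodes a receptor with roles in stem cell maintenance and cell fate. The study names NOTCH1 from these same libraries, so its value here is not independent evidence of a direction. NOTCH1 (ENSG00000148400, chr9:136494444-136545862, minus strand, GRCh38) was at 292.5 CPM in the parental library, against 57.7 CPM in clone 1, 72.2 CPM for the library labelled clone 5 and 91.4 CPM in clone 6. All 3 clones were far below the parental library, by 5.07-fold, 4.05-fold and 3.20-fold, and their own range was narrow. The clones averaged 73.8 ± 16.9 CPM (SD, n = 3). The fitted log2 fold change was -1.99 with a standard error of 0.36, and edgeR's quasi-likelihood test gave an unadjusted p of 0.00217 and a Benjamini-Hochberg adjusted p of 0.275. Over the alternatives the adjusted p of NOTCH1 ranged from 0.00125, with DESeq2's Wald test, to 0.726. Without the library labelled clone 5 the log2 fold change of NOTCH1 was -1.95, with an unadjusted p of 0.00861 and a Benjamini-Hochberg adjusted p of 0.562 in edgeR's quasi-likelihood test. In bulk RNA, fewer cells with NOTCH1 mRNA and less NOTCH1 mRNA per cell cannot be told apart, and this holds for every gene below.

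NOTCH2 encodes a receptor that many breast cells share with NOTCH1. NOTCH2 (ENSG00000134250, chr1:119911553-120069626, minus strand) was at 168.9 CPM in the parental library, against 240.3 CPM in clone 1, 156.3 CPM for the library labelled clone 5 and 136.9 CPM in clone 6. Clone 1 was above the parental library and the other clones were below it. The clones averaged 177.8 ± 55.0 CPM (SD, n = 3), the log2 fold change was 0.07 with a standard error of 0.42, and edgeR's quasi-likelihood test gave an unadjusted p of 0.868 and a Benjamini-Hochberg adjusted p of 0.957. A partial copy of the gene, NOTCH2NLA, could take up some of its reads. NOTCH2NLA held 88, 196, 162 and 147 counts in the same order, or 0.576% to 1.09% of the counts on NOTCH2.

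NOTCH3 encodes a receptor best known from vascular smooth muscle. NOTCH3 (ENSG00000074181, chr19:15159038-15200981, minus strand) was at 169.9 CPM in the parental library, against 10.2 CPM in clone 1, 84.2 CPM for the library labelled clone 5 and 49.5 CPM in clone 6. Every clone was lower, but clone 1 stood apart from the others. The clones averaged 48.0 ± 37.0 CPM (SD, n = 3). The log2 fold change was -1.83 with a standard error of 1.08, an unadjusted p of 0.131 and a Benjamini-Hochberg adjusted p of 0.538 in edgeR's quasi-likelihood test. Clone 1 and the library labelled clone 5 each decided whether NOTCH3 met the criterion: without clone 1 the log2 fold change was -1.34, with an unadjusted p of 0.0266 and a Benjamini-Hochberg adjusted p of 0.187 in edgeR's quasi-likelihood test. Without the library labelled clone 5 it was -2.48, with 0.0406 and 0.618.

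NOTCH4 encodes the receptor typical of endothelial cells. NOTCH4 (ENSG00000204301, chr6:32194843-32224067, minus strand) was near 1 CPM throughout, with 99 counts in the parental library and 102, 159 and 77 counts in the clones. Its log2 fold change was -0.06 with a standard error of 0.67, and its sign turned with the scaling, to 0.05 under upper quartile scaling. GPSM3, on the same strand, shares 98 of the 9748 exonic bases of NOTCH4, so that a few of the reads could belong to either.

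Per length, NOTCH1 was the leading receptor of the parental cells and of clone 6, and NOTCH2 led in the other clones. Each gene's CPM was divided by the length of its exons in kilobases for this comparison, and the share of each receptor in the sum of the 4 was taken as a description without a test. NOTCH1 made up 51.2% of receptor mRNA in the parental library, against 27.4% in clone 1, 28.4% for the library labelled clone 5 and 40.7% in clone 6. NOTCH2 made up 17.4% in the parental library, and 67.1%, 36.1% and 35.8% in the clones in the same order. In the library labelled clone 5 its margin over NOTCH3 was small. In clone 6 NOTCH1 led only per length, since in CPM NOTCH2 was above it there, at 136.9 against 91.4 CPM. NOTCH3 made up 31.3% in the parental library, against 5.09% in clone 1, 34.9% for the library labelled clone 5 and 23.2% in clone 6. NOTCH4 stayed under 1% everywhere. The sum of the 4 receptors was 57.9 CPM per kilobase in the parental library and 23.3 ± 2.25 CPM per kilobase (SD, n = 3) in the clones. The summed level was thus alike between clones whose receptor makeup differed.

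**Figure D2:**
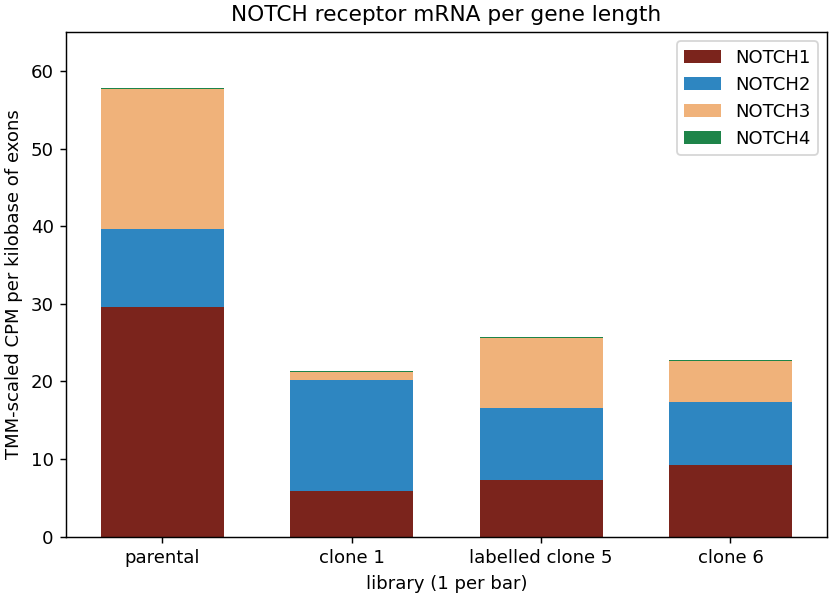
Stacked bars of the CPM per kilobase of exons of NOTCH1 to NOTCH4, with 1 bar per library and no error bar. The parental bar reaches 57.9 CPM per kilobase and the bars of the clones 21.3 to 25.7, with NOTCH2 as the largest part of the bar of clone 1.

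JAG1 is the Notch ligand most often studied in breast cancer. JAG1 (ENSG00000101384, chr20:10637684-10674107, minus strand) was at 124.9 CPM in the parental library, against 61.4 CPM in clone 1, 79.8 CPM for the library labelled clone 5 and 68.7 CPM in clone 6. All clones were lower and close to each other, with a mean of 70.0 ± 9.26 CPM (SD, n = 3). The log2 fold change of JAG1 was -0.84 with a standard error of 0.29, and edgeR's quasi-likelihood test gave an unadjusted p of 0.0319 and a Benjamini-Hochberg adjusted p of 0.389. JAG1 had the smallest standard error of the 9 genes, and only the size of its change kept it from the criterion. An antisense gene, AL050403.2, overlaps 79 exonic bases of JAG1, and AL050403.2 held at most 12 counts. Whether the counting kept the strand is not given in the sources used here.

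JAG2 encodes the second Jagged ligand. JAG2 (ENSG00000184916, chr14:105140981-105168824, minus strand) had 1325 counts in the parental library, against 74 in clone 1, 781 for the library labelled clone 5 and 503 in clone 6. These correspond to 14.7 CPM, 0.645 CPM, 7.33 CPM and 5.10 CPM. Clone 1 was 22.7-fold below the parental library and 7.91-fold to 11.4-fold below the other clones. The log2 fold change was -1.75 with a standard error of 1.26, an unadjusted p of 0.197 and a Benjamini-Hochberg adjusted p of 0.597 in edgeR's quasi-likelihood test. Without clone 1 JAG2 met the criterion, at -1.24 with an unadjusted p of 0.0314 and a Benjamini-Hochberg adjusted p of 0.198 in that test. AL512356.1 overlaps 7.33% of its exonic bases and held at most 4 counts.

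DLL1 encodes a Delta-like ligand found in mammary stem cells. DLL1 (ENSG00000198719, chr6:170282206-170306565, minus strand) was at 119.5 CPM in the parental library, against 46.9 CPM in clone 1, 47.8 CPM for the library labelled clone 5 and 94.8 CPM in clone 6. Here clone 6 stood apart, close to the parental level. The clones averaged 63.2 ± 27.4 CPM (SD, n = 3). The log2 fold change was -0.92 with a standard error of 0.51, an unadjusted p of 0.122 and a Benjamini-Hochberg adjusted p of 0.530 in edgeR's quasi-likelihood test. Without clone 6 DLL1 met the criterion, at -1.33 with an unadjusted p of 0.0187 and a Benjamini-Hochberg adjusted p of 0.739 in that test.

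DLL1 was the leading ligand per length in all 4 libraries. This order rests on the division by length. In CPM, JAG1 was above DLL1 in every library but clone 6, with 124.9 against 119.5 CPM in the parental library. Of the summed CPM per kilobase of the ligands JAG1, JAG2, DLL1, DLL3 and DLL4, DLL1 made up 67.8% in the parental library, against 65.3% in clone 1, 57.0% for the library labelled clone 5 and 75.6% in clone 6. JAG1 followed with 20.7% to 36.0%, JAG2 had 0.452% to 4.41%, and DLL3 and DLL4 were at most 2.47%. The sum was 54.6 CPM per kilobase in the parental library, against 22.3 in clone 1, 26.0 for the library labelled clone 5 and 38.9 in clone 6. Clone 6 thus held more ligand mRNA than the other clones.

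HES1 encodes the repressor that Notch switches on in most tissues, and other pathways act on it as well. HES1 (ENSG00000114315, chr3:194136145-194138732, plus strand), whose promoter with 2 RBPJ cores is printed above, was at 99.1 CPM in the parental library, against 165.8 CPM in clone 1, 50.2 CPM for the library labelled clone 5 and 64.1 CPM in clone 6. Clone 1, in which NOTCH1, NOTCH3, JAG2 and HEY1 were lowest, had the highest HES1, and the other clones were below the parental library. The clones averaged 93.3 ± 63.1 CPM (SD, n = 3), and the log2 fold change was -0.09 with a standard error of 0.75, an unadjusted p of 0.913 and a Benjamini-Hochberg adjusted p of 0.974 in edgeR's quasi-likelihood test. Without clone 1 the log2 fold change of HES1 was -0.79, with an unadjusted p of 0.0371 and a Benjamini-Hochberg adjusted p of 0.211 in that test.

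HEY1 encodes a related repressor that pairs with HES1. HEY1 (ENSG00000164683, chr8:79764010-79767863, minus strand) had 474 counts in the parental library, against 69 in clone 1, 161 for the library labelled clone 5 and 109 in clone 6. These correspond to 5.24 CPM, 0.602 CPM, 1.51 CPM and 1.11 CPM. All clones were below the parental library, by 8.72-fold, 3.47-fold and 4.74-fold, and averaged 1.07 ± 0.455 CPM (SD, n = 3). The log2 fold change of HEY1 was -2.29 with a standard error of 0.70, and edgeR's quasi-likelihood test gave an unadjusted p of 0.0177 and a Benjamini-Hochberg adjusted p of 0.351. Over the alternatives its adjusted p ranged from 0.0458, with DESeq2's Wald test, to 0.758. Without the library labelled clone 5 the log2 fold change was -2.59, with an unadjusted p of 0.0232 and a Benjamini-Hochberg adjusted p of 0.594 in edgeR's quasi-likelihood test. Without clone 6 HEY1 no longer met the criterion, at -2.31 with an unadjusted p of 0.0562 and a Benjamini-Hochberg adjusted p of 0.758 in that test. HEYL (ENSG00000163909, chr1:39624153-39639945, minus strand), the third HEY gene, had 4 counts in the parental library, against 0 in clone 1, 4 for the library labelled clone 5 and 6 in clone 6, near the floor of 3 counts in all of them.

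Across the set the order of levels was wide. In the parental library HES1 led with 48.0 CPM per kilobase, followed by DLL1 with 37.0, NOTCH1 with 29.6, NOTCH3 with 18.1, JAG1 with 14.6 and NOTCH2 with 10.1 CPM per kilobase. JAG2 with 2.29, HEY1 with 1.62, NOTCH4 with 0.112 and HEYL with 0.0121 CPM per kilobase came last. With 1 parental library the spread behind this order is not known. Among the clones, HES1 averaged 45.3 ± 30.6, DLL1 19.6 ± 8.49, NOTCH2 10.6 ± 3.27, JAG1 8.20 ± 1.09, NOTCH1 7.47 ± 1.71 and NOTCH3 5.11 ± 3.94 CPM per kilobase (SD, n = 3). Apart from DLL1 and NOTCH2, each pair of neighbors in this order differed by less than the larger of their SDs. JAG2 at 0.681 ± 0.532, HEY1 at 0.332 ± 0.141 and NOTCH4 at 0.108 ± 0.0393 CPM per kilobase stayed below them.

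The clones differed from each other as well as from the parental library. Each clone was set against the parental library by a log2 ratio of TMM-scaled CPM with an exact Clopper-Pearson 95% interval, which covers counting error only, and the 3 ratios of a gene share the parental library. Clone 1 was lower by more than 1 on the log2 scale in 6 of 9 genes, against 15.4% of all genes with at least 1 CPM. The library labelled clone 5 was so in 5 of 9, against 13.5%, and clone 6 in 4 of 9, against 13.7%. NOTCH1, NOTCH3, JAG2 and HEY1 passed this size in each clone, although NOTCH3 at -1.01 and JAG2 at -1.0 lay at its edge in the library labelled clone 5, and under each of the 3 other scalings that library had 3 such genes. The median log2 ratio of the 9 genes was -1.35 in clone 1, -1.0 for the library labelled clone 5 and -0.86 in clone 6, against -0.07, -0.07 and -0.06 over all genes with at least 1 CPM.

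The log2 ratio of NOTCH1 was -2.34 (95% interval -2.38 to -2.30) in clone 1, -2.02 (-2.05 to -1.98) for the library labelled clone 5 and -1.68 (-1.71 to -1.64) in clone 6, with intervals that do not overlap. NOTCH3 had the ratios -4.06 (-4.15 to -3.97), -1.01 (-1.05 to -0.97) and -1.78 (-1.83 to -1.73) in the same order. JAG2 had -4.51 (-4.86 to -4.17), -1.0 (-1.13 to -0.87) and -1.52 (-1.67 to -1.37). The 2 genes had the same order of clones, with clone 1 lowest and the library labelled clone 5 highest, and so had HEY1, with -3.12 (-3.51 to -2.76), -1.80 (-2.06 to -1.53) and -2.25 (-2.56 to -1.94). HES1 went the other way in clone 1, with 0.74 (0.71 to 0.78), and was at -0.98 (-1.03 to -0.93) and -0.63 (-0.68 to -0.58) in the others. NOTCH4, with counts near 100, had intervals of -0.71 to 0.11, 0.07 to 0.82 and -0.94 to -0.04, so that a difference from the parental library was not detectable at this depth in clone 1.

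Set against each other, clone 1 and the library labelled clone 5 differed by more than 1 on the log2 scale in 4 of 9 genes, namely NOTCH3, JAG2, HES1 and HEY1, against 23.4% of all genes with at least 1 CPM. Clone 1 and clone 6 did so in 4 of 8, namely NOTCH3, JAG2, DLL1 and HES1, against 22.2%. The library labelled clone 5 and clone 6 did so in 0 of 9, against 10.6%. Their largest difference was that of DLL1, at -0.99 (95% interval -1.04 to -0.94) for the library labelled clone 5 over clone 6. HES1 was higher in clone 1 than in the library labelled clone 5 by a log2 ratio of 1.72 (1.68 to 1.77) and than in clone 6 by 1.37 (1.33 to 1.41), and these are single libraries without a replicate.

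**Figure D3:**
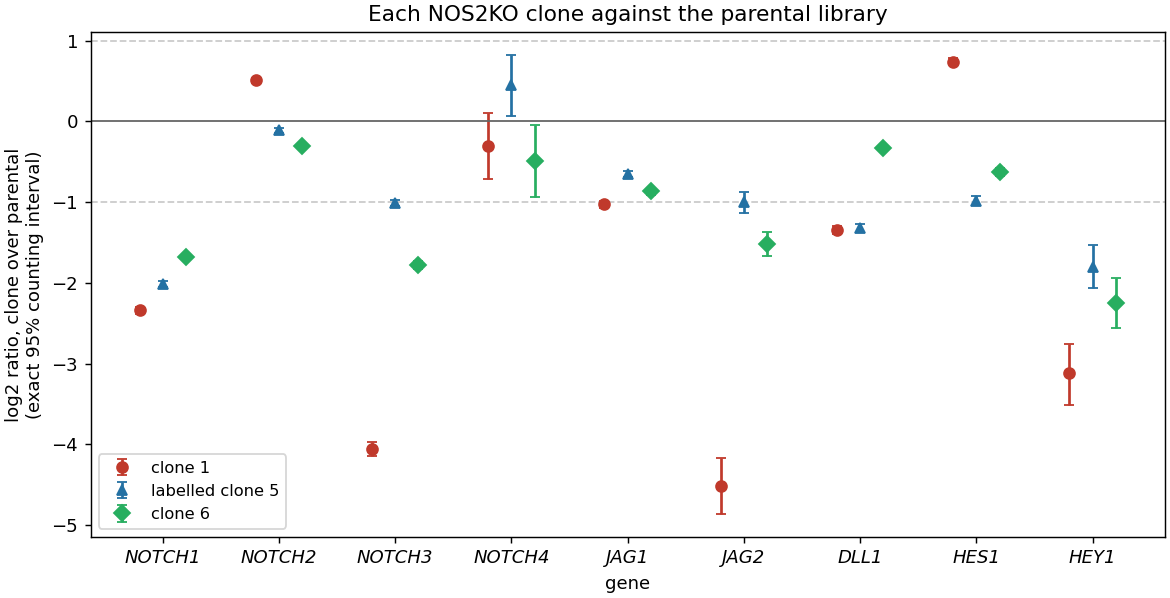
Log2 ratio of TMM-scaled CPM of each clone over the parental library for the 9 tested genes, with exact 95% counting intervals, and dashed lines at 1 and -1. NOTCH1, NOTCH3, JAG2 and HEY1 lie at or below the lower dashed line in all clones, clone 1 reaches -4.06 for NOTCH3 and -4.51 for JAG2, and HES1 is at 0.74 in clone 1 and below 0 in the others.

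The rest of the pathway was taken from 9 lists that held 58 further genes, of which 56 were tested. Of these, 2 rose and 4 fell by the criterion, and 50 did not meet it. The 6 genes are 10.7% of those tested, near the 9.58% of all genes. By edgeR's quasi-likelihood test 0 of them had a Benjamini-Hochberg adjusted p under 0.05, and by DESeq2's Wald test 2 had. The median log2 fold change of the 56 genes was -0.37, against 0.10 over all genes. In all 3 clones 27 of them, or 48.2%, were lower, against 30.5% of all genes, and 10, or 17.9%, were higher, against 28.6%.

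The corepressors, which hold RBPJ targets silent in the absence of Notch, gave 3 of the 6 calls, out of 10 genes tested. In lists this short, a count of 0 or 1 call is near what 9.58%, the share over all genes, comes to. TLE1, TLE2 and TLE4 are Groucho-type corepressors, with which HES proteins also act. TLE1 had 554 counts in the parental library, against 74 in clone 1, 45 for the library labelled clone 5 and 30 in clone 6. TLE1 was low in every clone, with a log2 fold change of -3.74, a standard error of 0.65 and, in edgeR's quasi-likelihood test, an unadjusted p of 0.00179 and a Benjamini-Hochberg adjusted p of 0.275. TLE4 went up from 10.6 CPM to 29.2, 35.4 and 27.5 CPM, with a log2 fold change of 1.53, a standard error of 0.31 and, in edgeR's quasi-likelihood test, an unadjusted p of 0.00770 and a Benjamini-Hochberg adjusted p of 0.327. TLE2 went up from 41.9 CPM to 71.2, 80.5 and 111.2 CPM, with a log2 fold change of 1.07 and a standard error of 0.36. TLE1 and TLE4 are the 2 genes that DESeq2's Wald test called, at adjusted p = 3.59e-05 and 0.00537. HDAC1, a histone deacetylase, did not meet the criterion, at a log2 fold change of 0.91, but met it under upper quartile scaling. TLE1, TLE2 and TLE4 thus differed in direction. Of the 6 called genes, TLE1 and TLE4 kept the criterion whichever clone was left out. TLE2 and DLK2 kept it only without clone 1, ADAM17 only without the library labelled clone 5, and RFNG in none of these fits.

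The glycosyltransferases, which add sugars to the receptors and tune their choice of ligand, gave 1 call of 5 tested. RFNG, a Fringe enzyme, fell from 39.1 CPM to 16.2, 21.0 and 19.6 CPM, with a log2 fold change of -1.05 and a standard error of 0.32. POFUT1, which adds the fucose that Fringe enzymes extend, was at 180.5 CPM in the parental library and 147.1 ± 15.0 CPM (SD, n = 3) over the clones, and its log2 fold change was -0.30. LFNG, another Fringe enzyme named after its values were seen, was at 3.20 CPM in the parental library, against 4.01 CPM in clone 1, 21.7 CPM for the library labelled clone 5 and 17.0 CPM in clone 6. It did not meet the criterion, but met it with DESeq2's Wald test and without clone 1.

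The proteases that cut the receptors gave 1 call of 9 tested. ADAM17, a sheddase of many membrane proteins, fell from 79.7 CPM to 31.4, 47.1 and 37.6 CPM, with a log2 fold change of -1.04 and a standard error of 0.33. ADAM10, the main sheddase of ligand-bound receptors, was at 109.1 CPM in the parental library and 141.8 ± 46.1 CPM (SD, n = 3) in the clones, and FURIN, which cuts the receptor precursor, at 211.9 CPM and 176.4 ± 63.4 CPM. Under upper quartile scaling neither RFNG, ADAM17 nor DLK2 met the criterion.

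The nuclear activators gave 0 calls of 8 tested, although the histone acetyltransferases CREBBP and EP300 were lower in all 3 clones. CREBBP was at 148.0 CPM in the parental library and 94.3 ± 0.50 CPM (SD, n = 3) over the clones. Its log2 fold change was -0.65, with an unadjusted p of 0.0496 and a Benjamini-Hochberg adjusted p of 0.435 in edgeR's quasi-likelihood test. EP300 was at 134.9 CPM and 91.1 ± 4.07 CPM, with a log2 fold change of -0.57, an unadjusted p of 0.0779 and a Benjamini-Hochberg adjusted p of 0.475 in that test. The other target genes gave 0 calls of 7 tested, although MYC met the criterion without clone 1 and NRARP under 5 alternatives, namely without clone 1, with library size scaling, with no filter, with DESeq2's Wald test and with the bias-adjusted quasi-likelihood. MYC, a growth regulator, was at 604.3 CPM in the parental library, against 672.1 CPM in clone 1, 129.0 CPM for the library labelled clone 5 and 219.9 CPM in clone 6. CCND1, a cyclin of the G1 phase, was at 717.1 CPM, 334.1 CPM, 855.6 CPM and 465.9 CPM in the same order. MYC was thus highest in clone 1, as HES1 was, while CCND1 was lowest there.

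The other canonical ligands were low, DLL3 with 134 to 179 counts and DLL4 with 0 to 11, and neither met the criterion. The genes of receptor trafficking and turnover gave 0 calls of 11 tested, and MIB1, a ligase that ligands need in order to signal, and NUMB, an inhibitor of Notch, had log2 fold changes of -0.22 and -0.19. The non-canonical ligands gave 1 call of 4 tested. DLK2 fell from 5.98 CPM to 2.28, 2.84 and 1.92 CPM, with a log2 fold change of -1.35 and a standard error of 0.52. EGFL7, an endothelial factor, had 165 counts in the parental library, against 13 in clone 1, 193 for the library labelled clone 5 and 434 in clone 6.

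**Figure D4:**
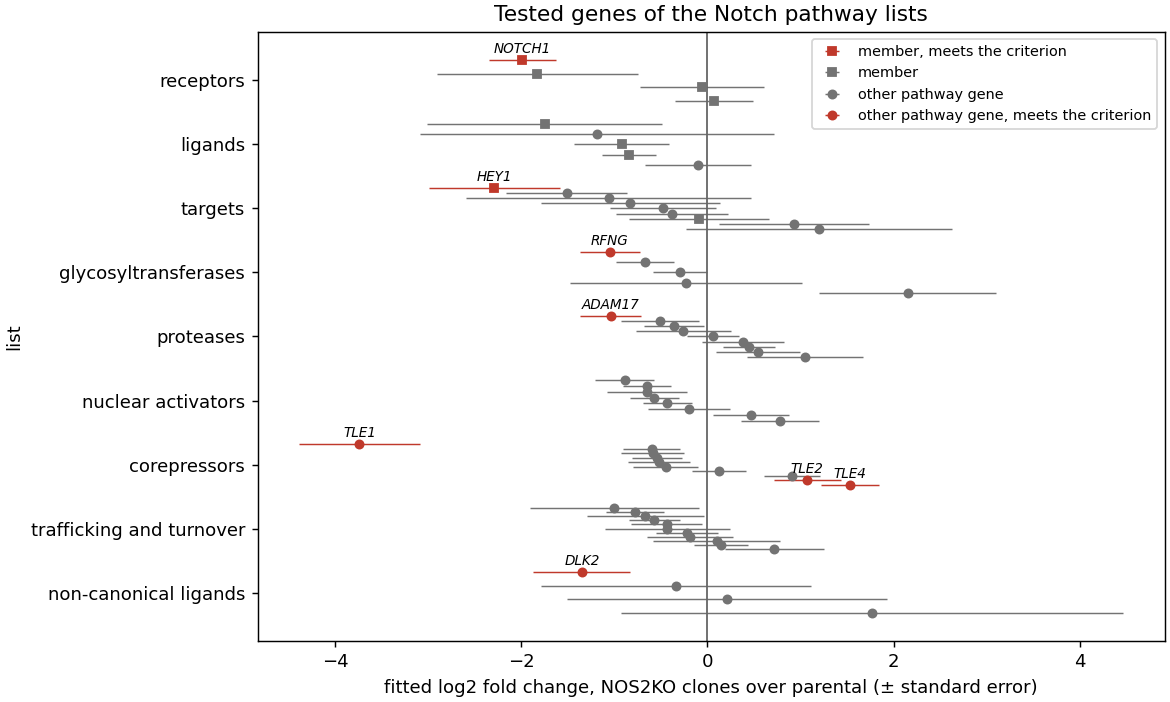
Fitted log2 fold changes of the clones over the parental library with standard errors for the tested genes of the 9 lists, 1 point per gene. NOTCH1 at -1.99, HEY1 at -2.29, RFNG at -1.05, ADAM17 at -1.04, TLE1 at -3.74, TLE2 at 1.07, TLE4 at 1.53 and DLK2 at -1.35 are drawn in red as meeting the criterion.

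The genes most like NOTCH1 and HEY1 over the 4 libraries were found by the root mean square difference of centered log2(CPM + 1), over genes that reached 10 CPM in some library. For NOTCH1 these were SNHG1, JMY, RBCK1, AC125232.1 and ITGA2 out of 10707 genes, with differences of 0.0472 to 0.131 on the log2 scale. SNHG1, a host gene of small nucleolar RNAs, was at 209.3 CPM in the parental library and at 41.9, 48.5 and 66.8 CPM in the clones. ITGA2, a collagen receptor subunit, was at 356.2 CPM and at 54.3, 77.8 and 97.7 CPM. For HEY1 they were TMEM268, ZFAND3, HERPUD1, TNFRSF10D and ZNF37A, with differences of 0.0509 to 0.103. HEY1 itself was at 0.602 to 5.24 CPM, so the added 1 CPM shrinks its differences between libraries more than theirs. In clone 1 HEY1 was at 0.602 CPM against 5.24 CPM in the parental library, and TMEM268 at 12.3 against 54.9 CPM. The small differences for HEY1 are thus not a likeness in fold change. With 4 libraries many genes can share such a pattern, and the lists are a description.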

How the data were processed

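RNA of 1 parental library and 3 NOS2KO clones of SUM159 was analysed from the files the authors deposited, which hold raw counts per gene without normalization. Per the labels, poly(A)-enriched mRNA was read as paired ends. The submitters' processing notes name bcl2fastq 2.17, Trimmomatic 0.36, STAR 2.5.2b, featureCounts of Subread 1.5.2, DESeq2 and GRCh38, and the strand and multimapping settings are not given in the sources used here. Of 57500 identifiers, 56898 had a symbol in GENCODE release 29 and 54749 the same position. Coordinates are those of the files.

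edgeR 4.0.16 on R 4.3.3 was used to fit the counts (filterByExpr by group, TMM, estimateDisp, glmQLFit, glmQLFTest) over 22511 genes, with Benjamini-Hochberg adjustment. The common dispersion was 0.319, with 2 residual and 2.75 prior degrees of freedom. Standard errors were computed from the information matrix of that fit. CPM is relative to the TMM-scaled library size. A floor of 3 counts was used. DESeq2 1.42.0 and the other alternatives changed one choice each. The rest used scipy 1.17.1 with numpy 2.4.6, matplotlib 3.10.9 and pandas 2.3.3 on Python 3.11.15. The fit and the intervals were also run on simulated data. The settings and the outcome of that run are not given here. No conclusion is drawn from it on the accuracy of the fit or the intervals for these counts.

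The 10 genes and the lists were chosen with earlier results of these data known. Named besides them were the genes of each list that met the criterion, the 2 most abundant further genes of each list, the 5 genes most like NOTCH1 and HEY1 in pattern, and overlapping genes or NOTCH2 copies. One gene under this rule is not reported here.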

Additional observations from a re-analysis of the deposited data

How the results depend on the processing

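NOTCH1 met the criterion under all 11 alternatives, and HEY1 under all but one, the fit without clone 6. The genes called over the whole table were 2157 and ranged from 1466 to 3399 when 1 clone was left out, the most without clone 1. The genes at an adjusted p under 0.05 were 1 with edgeR's quasi-likelihood test, 6 without a filter, 5 with its bias-adjusted form, 1095 with DESeq2 and 0 to 0 when 1 clone was left out. Of the 9 Notch genes 2 to 4 were called when 1 clone was left out, and 4 without clone 1 (NOTCH1, NOTCH3, JAG2 and HEY1). The shares of all genes called were 15.5% without clone 1, 7.83% without the library labelled clone 5 and 6.61% without clone 6. Of the further pathway genes 3 to 8 were called, the 8 without clone 1, with 3 without the library labelled clone 5 or without clone 6. The median log2 fold change of the Notch genes was -1.33 to -0.79 when 1 clone was left out and -1.35 in clone 1 alone. When 1 clone was left out, the log2 fold change of NOTCH2 ranged from -0.20 to 0.23, that of NOTCH4 from -0.37 to 0.12 and that of HES1 from -0.79 to 0.23, so that their signs turned. Upper quartile scaling moved the median of all genes by 0.10 and gave a fitted log2 fold change of 0.05 for NOTCH4 over the clones. In the library labelled clone 5 it gave a log2 ratio of 0.02 for NOTCH2. The genes lower by over 1 in the library labelled clone 5 were 3 under RLE, upper quartile and library size scaling. Without division by length, NOTCH1 made up 46.3% of receptor counts in the parental library, against 18.7% in clone 1, 23.0% for the library labelled clone 5 and 32.8% in clone 6. NOTCH2 then led in clone 6 too, with 13498 counts against 9013 for NOTCH1. Apart from the change of divisor here, the cause was not tested. No paired analysis was possible because the parental group has 1 library and shares no replicate pairs with the clones.

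The single parental library limits every comparison. A fit without 1 clone has 1 residual degree of freedom, and its p-values rest on 2 clones. HEYL, HES5 and DLK1 were too low to be tested.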

Other observations

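The neighbors of the Notch genes on the genome were looked at after the values had been seen. AC036214.1 is a long noncoding RNA whose near end lies 1.51 kb upstream of HEY1. It had 34 counts in the parental library, against 1 in clone 1, 0 for the library labelled clone 5 and 2 in clone 6. Every clone was at or under the floor of 3 counts. Up to 5 tested genes on each side of a Notch gene were taken, nearest by midpoint. The 10 around HEY1, AC036214.1 among them, had a median log2 fold change of -0.94 with 1 gene called. The 10 around NOTCH1 had -0.26, with 1 gene called. That gene was ENTR1, 83.8 kb from NOTCH1, at 91.3 CPM in the parental library and 40.9, 35.6 and 29.7 CPM in the clones. A count of 1 in 10 is near the 9.58% of all genes tested. Around the other Notch genes the medians ran from -0.40 for NOTCH2 to 1.07 for JAG1, with 0 to 3 genes called. The median around HEY1 was thus the lowest, and its neighbors lay up to 1040 kb away. NALT1, a noncoding RNA 0.35 kb from NOTCH1, had 75 counts in the parental library and 28, 73 and 119 counts in the clones, so it was lower than the parental library in clone 1 and near or above it in count in the others. NRARP, a feedback inhibitor that Notch induces and that lay outside the naming rule, was at 12.6 CPM in the parental library and at 6.49, 4.22 and 2.5 CPM for the clones. Its log2 fold change was -1.51, with an unadjusted p of 0.0577 and a Benjamini-Hochberg adjusted p of 0.448 in edgeR's quasi-likelihood test, and it met the criterion under 5 of the 11 alternatives.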
